A study of Canis lupus familiaris with 2 samples.

Results

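The retinoid genes described here are RLBP1, DHRS3, CRABP2, STRA6, RDH10, RARA, RARB, RARG and RXRA, 9 of the 23510 features listed by gene symbol for each culture. RLBP1 and DHRS3 were selected on their measured ratios, which were among the smallest between the cultures, and the other 7 genes were added by symbol for their place in the same pathway. MDCK cells, an established line of canine kidney epithelium, were grown on a semipermeable membrane under medium that was either 2 or 50 cm high, which loads 2 or 50 cm H2O of static pressure on them. Both cultures were kept in the same serum-containing medium, and the labels place them at day 3. RNA was sequenced from 1 culture per medium height, so no value below has a replicate, no difference could be set against replicate error and no gene was tested. Values are FPKM, fragment numbers scaled by exon length and by the size of the library. How the 2 cultures were scaled to each other is not given. Comparisons between cultures and between genes therefore rest on the values as deposited.

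Vitamin A circulates as retinol bound to RBP4 and enters many cells through the membrane receptor STRA6. Inside the cell, RDH10 oxidizes retinol to retinal and DHRS3 reduces retinal back to retinol. Along with other enzymes of these steps, the pair helps to set how much retinal is left for the ALDH1A enzymes to turn into retinoic acid. CRABP2 carries retinoic acid to its nuclear receptors, the RAR proteins, which bind DNA as dimers with RXR proteins, and CYP26 enzymes break retinoic acid down. RLBP1 encodes a retinaldehyde-binding protein that is best known from the pigment epithelium and Müller glia of the retina, where it serves the visual cycle. In the developing kidney, retinoic acid receptors are needed for branching of the ureteric bud.

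RLBP1 and DHRS3, the 2 genes chosen for their ratios, were the ones past 2-fold, and both were lower in the 50-cm-high-medium culture. RDH10, RARA, RARG and RXRA were above 1 FPKM in both cultures and differed by at most 1.35-fold. STRA6, CRABP2 and RARB did not pass 1 FPKM in both cultures, so 6 of the 9 genes could be counted by the rule of the study, a change past 2-fold where both cultures exceed 1 FPKM. By that rule 2 of 6 were lower and 0 of 6 were higher. Among all 11057 features above 1 FPKM in both cultures, 1.67% were past 2-fold, 1.28% lower and 0.389% higher. As RLBP1 and DHRS3 were chosen on this very ratio, nothing can be read from the 2 of 6. The median log2 ratio of 50-cm over 2-cm FPKM was -0.22 over the 6 genes and 0.0023 over the 4 without RLBP1 and DHRS3, beside 0.015 over all features tested.

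**Figure D1:**
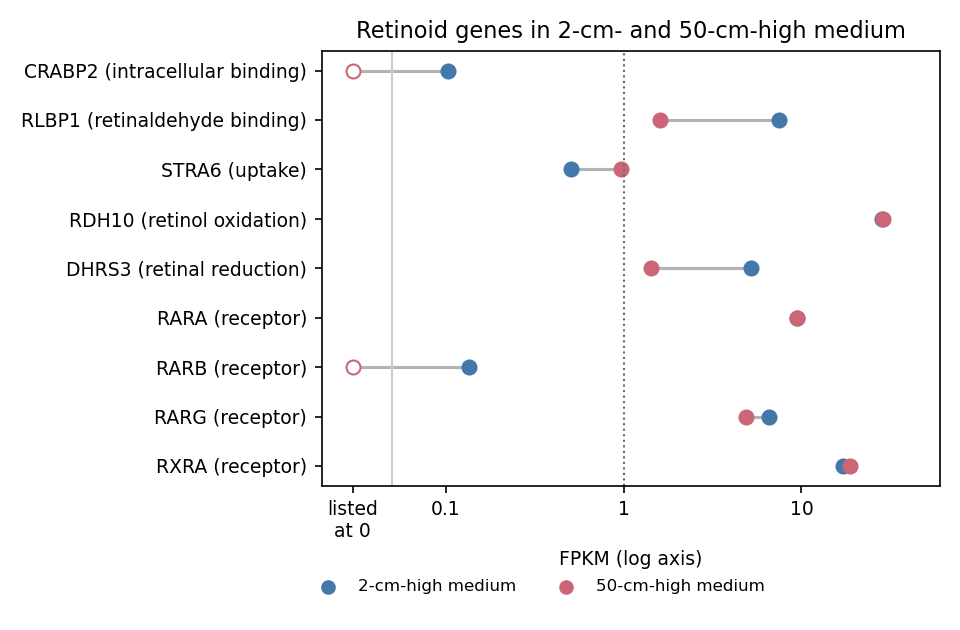
FPKM (log axis) of the 9 retinoid genes in 2-cm-high medium (blue) and 50-cm-high medium (red), 1 culture each, with no error bars because there are no replicates; open circles left of the grey line are listed at 0 FPKM, and the dotted line marks 1 FPKM. RLBP1 and DHRS3 lie far to the left in 50-cm-high medium, the points of RDH10 and RARA nearly coincide, and CRABP2 and RARB are listed at 0 in 50-cm-high medium.

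RLBP1 had 7.52 FPKM under the lower medium column, of 2 cm, but 1.60 FPKM under the column of 50 cm. The ratio was 0.213, or -2.23 on the log2 scale, a 4.70-fold lower value, and had rank 4 from the smallest among the 11057 features. The surroundings of each value are described by how widely log2 ratios were scattered over the 500 features closest in mean log2 FPKM, a scatter between genes that does not replace replicates. Around RLBP1 its 5th and 95th percentiles were -0.94 and 0.51, and 1 of the 500 features had a lower ratio. As RLBP1 was chosen on its small ratio, its rank and its place below these features restate that choice and support nothing, and the same holds for DHRS3. Markers of retinal cell types were mostly at or near 0. RPE65, TYR and CRX were listed at 0 FPKM in both cultures, BEST1 was listed at 0 in 2-cm-high medium and stood at 0.0302 FPKM in 50-cm-high medium, and GLUL, which many epithelia also express, had 18.0 and 14.5 FPKM. In the RefSeq gene table of the dog assembly UU_Cfam_GSD_1.0, no other gene overlaps RLBP1. The listed genes on either side of it were at 66.9 and 67.0 FPKM (ABHD2) and at 22.1 and 19.5 FPKM (FANCI) in 2- and 50-cm-high medium. Neither neighbour was past 2-fold.

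DHRS3, the retinal reductase, had 5.18 FPKM in 2-cm-high and 1.42 FPKM in 50-cm-high medium. The ratio was 0.274, or -1.87 on the log2 scale, a 3.64-fold lower value with rank 7 from the smallest among the 11057 features. For the 500 features nearest in expression, the 5th and 95th percentiles of the log2 ratio were -0.98 and 0.46, and 1 feature was lower, a place that again follows from how DHRS3 was chosen. The other retinal reductases differed in both directions and stayed within 2-fold. RDH11 had 45.5 FPKM in 2-cm-high and 30.3 FPKM in 50-cm-high medium (ratio 0.666), whereas RDH13, a mitochondrial member of the family, had 9.63 and 15.3 FPKM (ratio 1.59). RDH14 was the most abundant, at 110 and 94.99 FPKM, DHRS4 had 55.4 and 53.9 FPKM, and RDH12 was listed at 0. DHRS3 held 2.29% of the summed FPKM of these reductases in 2-cm-high but 0.724% in 50-cm-high medium. The smaller share also follows from the ratio on which DHRS3 was chosen and is no separate result. The sum of the group was 226 and 196 FPKM. By RefSeq, 3 loci without gene names overlap DHRS3, and none of them was analysed here. Of the listed genes on either side of DHRS3, VPS13D had 15.0 FPKM in 2-cm-high and 13.2 FPKM in 50-cm-high medium (ratio 0.879). AADACL4 had 0.233 and 0.694 FPKM, a ratio of 2.98 between values below 1 FPKM.

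RDH10, which catalyses the opposite step, was nearly equal in the cultures, with 28.5 FPKM in 2-cm-high and 28.7 FPKM in 50-cm-high medium (ratio 1.01). The FPKM of RDH10 was 5.50 times that of DHRS3 in 2-cm-high but 20.2 times in 50-cm-high medium, a quotient of RNA levels and not of enzyme activity. As RDH10 was nearly equal, the difference in this quotient restates the ratio on which DHRS3 was chosen and supports nothing. Of the other genes for retinol oxidation, DHRS9 was higher in 50-cm-high medium, at 18.3 FPKM against 12.1 FPKM (ratio 1.51), above the 95th percentile of 0.42 on the log2 scale for features of like expression. RDH5, with 21.6 and 20.2 FPKM, and SDR16C5, with 7.60 and 8.09 FPKM, were close to equal. RDH16 was at 0.198 FPKM in 2-cm-high medium and listed at 0 in 50-cm-high medium.

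STRA6, the uptake receptor, had 0.505 FPKM in 2-cm-high and 0.963 FPKM in 50-cm-high medium. The ratio of 1.91 was the highest of the 7 that could be computed among the 9 genes, and it fell short of 2-fold, and neither value reached 1 FPKM. Among the 500 features nearest to STRA6 in expression, taken from those above 0.1 FPKM in both cultures, the 5th and 95th percentiles of the log2 ratio were -1.49 and 1.07, and the 0.93 of STRA6 lay between them. RBP4, which encodes the retinol carrier of the blood, had 67.5 and 62.9 FPKM, and SCARB1, a lipoprotein receptor that also takes up carotenoids, had 93.6 and 87.6 FPKM. TTR, the partner of RBP4 in plasma, the cellular retinol-binding protein genes RBP2, RBP5 and RBP7, the retinal carrier gene RBP3 and LRP2, the receptor for filtered retinol carrier in the proximal tubule, were listed at 0 in both cultures.

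CRABP2 had 0.103 FPKM in 2-cm-high medium and was listed at 0 FPKM in 50-cm-high medium. Its relative CRABP1 was listed at 0 in both cultures. For the receptor RARB the values were 0.135 FPKM and 0. A total of 819 features were above 0 in the 2-cm-high-medium culture only, with a median of 0.0709 FPKM, and CRABP2 exceeded 61.8% and RARB 69.5% of them. The reverse was seen for 645 features, which were above 0 in the 50-cm-high-medium culture only. A listed 0 does not show that RNA was absent, since ATP5O, a subunit of the ATP synthase that all these cells need, was also at 0 in both cultures. No fold change was computed for either gene.

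Among the receptors, RARA had 9.45 and 9.40 FPKM and RXRA 17.1 and 18.9 FPKM in 2- and 50-cm-high medium, ratios of 0.994 and 1.10. RARG was lower in 50-cm-high medium, at 4.90 FPKM against 6.59 FPKM (ratio 0.743, log2 ratio -0.43), but lay between the 5th and 95th percentiles of features of like expression, -0.67 and 0.47. RXRB, at 10.8 and 8.24 FPKM (ratio 0.766), was similar in this respect, and RXRG was listed at 0. RARA therefore made up 58.4% of the summed RAR FPKM in 2-cm-high but 65.7% in 50-cm-high medium, and RXRA made up 61.4% and 69.6% of the summed RXR FPKM. The RAR sum was 16.2 and 14.3 FPKM and the RXR sum 27.8 and 27.1 FPKM. In both cultures the order of levels among the 9 genes began with RDH10, RXRA and RARA. RLBP1, RARG and DHRS3 followed in 2-cm-high medium, whereas RARG was ahead of RLBP1 and DHRS3 in 50-cm-high medium.

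**Figure D2:**
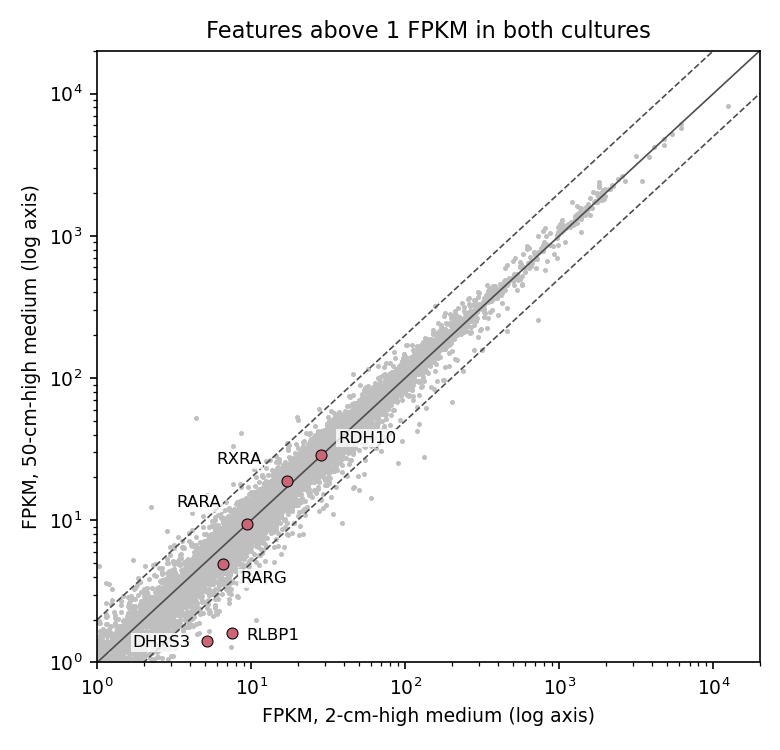
FPKM in 2-cm-high (x) and 50-cm-high medium (y), both log axes, for the 11057 features above 1 FPKM in both cultures (grey points, 1 culture each), with the 6 retinoid genes among them in red. The solid line marks equality and the dashed lines 2-fold; RLBP1 and DHRS3 lie below the lower dashed line and RDH10, RARA, RARG and RXRA lie between the dashed lines.

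The pathway was then followed through a wider list of genes, written with earlier results of these data known. Besides the 9 genes it held 72 that could be analysed, of which 40 were above 1 FPKM in both cultures. Of these, 0 were past 2-fold, beside 1.67% of all features tested, a share so small that 0 of 40 is not a result about the pathway. The ratios were above 1 for 17 genes and below 1 for 23, and the median log2 ratio was -0.079. The enzymes around retinoic acid itself were unequal in level. ALDH1A1, which oxidizes retinal to retinoic acid and was the most abundant gene of the list, had 297 FPKM in 2-cm-high and 194 FPKM in 50-cm-high medium (ratio 0.653). Its log2 ratio of -0.62 lay below the 5th percentile of -0.24 for features of like expression, and 1.4% of those features were lower. ALDH1A2 was listed at 0 in both cultures, and ALDH1A3 stood at 0.0427 and 0.0469 FPKM. The CYP26 genes for breakdown were barely seen, with CYP26A1 at 0.272 and 0.298 FPKM, CYP26B1 at 0.130 and 0.174 FPKM and CYP26C1 at 0. LRAT, which stores retinol as esters, had 4.93 and 4.35 FPKM (ratio 0.882), and DGAT1, which can also esterify retinol, had 27.9 and 29.5 FPKM (ratio 1.06).

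**Figure D3:**
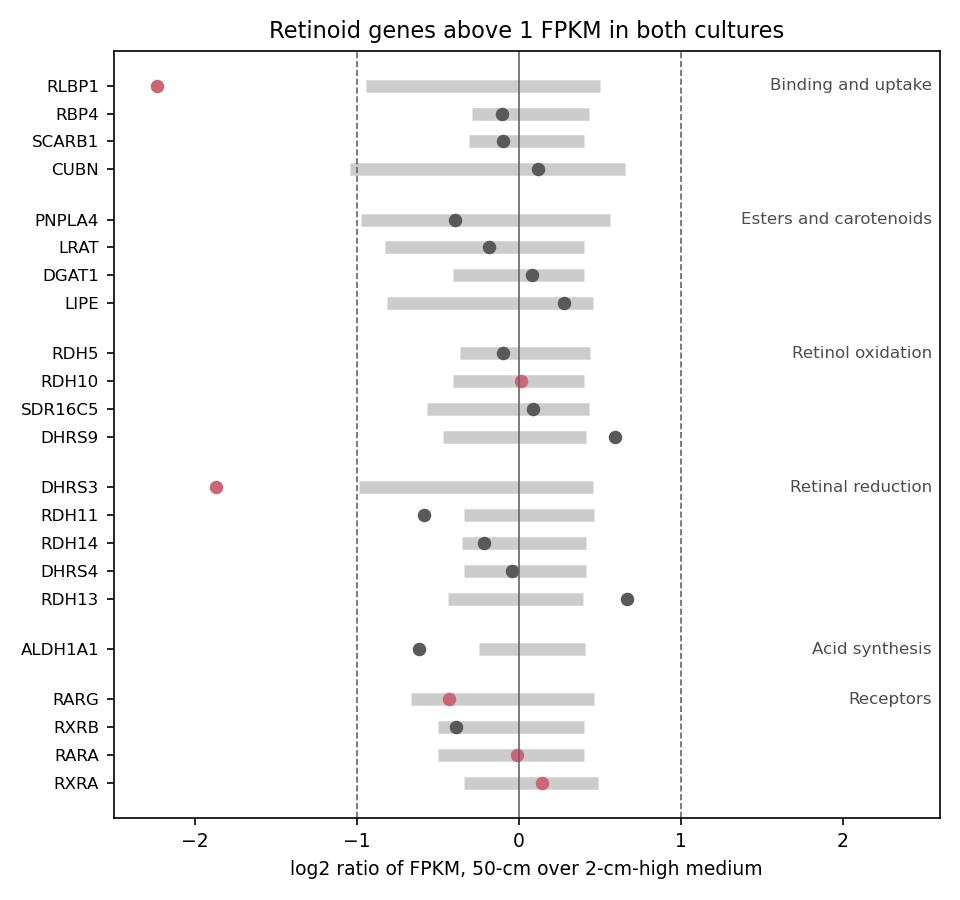
Log2 ratio of 50-cm over 2-cm FPKM (points, 1 culture each) for the retinoid genes above 1 FPKM in both cultures, grouped by role, with the 9 genes chosen here in red where they pass and other genes in dark grey; grey bars run from the 5th to the 95th percentile of the 500 features nearest in expression, and dashed lines mark 2-fold. RLBP1 (-2.23) and DHRS3 (-1.87) lie past the dashed line, whereas of the other genes plotted RDH11, RDH13, DHRS9 and ALDH1A1 lie outside their bars but within 2-fold.

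Genes that retinoic acid induces in other cells formed the last group. Of 21 such genes, 12 were above 1 FPKM in both cultures, and DHRS3, which was chosen on this ratio, was the only one past 2-fold, beside 1.67% of all features tested. The ratios were above 1 for 6 genes and below 1 for 6. Without DHRS3 the 11 others had a median log2 ratio of 0.028. Their ratios ran from 0.635 to 1.23, the highest being that of FOXA1, with 1.02 and 1.25 FPKM. CYP26A1 and RARB, classical members of this group, were at the low values given above. RARRES3 had 7.59 and 4.82 FPKM (ratio 0.635), MEIS2 had 4.19 and 2.78 FPKM (ratio 0.664), and RARRES1 had 22.1 and 17.8 FPKM (ratio 0.808). LAMB1, ETS1 and NRIP1 differed by ratios of 1.06, 1.03 and 1.06. The coactivators and corepressors of the receptors ranged from NCOA1, with 5.80 and 4.08 FPKM (ratio 0.705), to EP300 (ratio 1.09), and MED1 was the most abundant, with 22.6 and 24.0 FPKM. Among receptors that pair with RXR, NR1H3 had 2.26 and 1.25 FPKM (ratio 0.554) and PPARG had 54.4 and 39.0 FPKM (ratio 0.717), while PPARD had 38.4 and 42.8 FPKM (ratio 1.11). Of the partners not above 1 FPKM in both cultures, NR1I2 had 1.70 and 0.875 FPKM (ratio 0.514). VDR, also among them, had 0.293 and 0.443 FPKM (ratio 1.51). Of the target genes and receptor partners named here, PPARG (log2 ratio -0.48) and RARRES3 (-0.65) lay below the 5th percentiles of features of like expression, -0.34 and -0.65, RARRES3 only just.

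How few reads could lie behind these values was read from the files, since the number of reads is not given. In the lowest features the ratios sat on steps left by whole reads, and a single read carried 9.77% more FPKM in 50-cm-high than in 2-cm-high medium. Of 758 features with a geometric mean of 0.01 to 0.1 FPKM, 82.8% were within 0.05% of a quotient of 2 whole numbers up to 10, as so few reads would leave, although such quotients cover 1.83% of the range. The share was 20.2% between 1 and 2 FPKM, 7.37% between 2 and 5 FPKM and 3.17% between 5 and 10 FPKM. Such quotients cover 2.24%, 2.40% and 2.56% of the range at these levels. Of the 7 genes with a value above 0 in both cultures, DHRS3 lay on such a step, that of 4 reads in 2-cm-high medium against 1 in 50-cm-high medium, and missed it by 0.000325%. Multiples of 4 to 1 give the same ratio. If DHRS3 had exactly 4 reads, each would be worth 1.29 FPKM in 2-cm-high medium, and 17 of the 819 features seen in that culture only (2.08%) had a value above that. The median of those 819 features was 0.0709 FPKM and the whole value of ALDH1A3 in that culture was 0.0427 FPKM, both far below 1.29 FPKM. What a read is worth also depends on exon length, which was not used here. The pair of 4 to 1 is the smallest that gives the ratio and not a count of reads. The read numbers of DHRS3 are therefore not known. CRABP2 and RARB, at 0 in 1 culture, form no ratio that could be placed on a step.

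Allowing up to 200 reads and a tolerance of 0.001%, a choice made after the precision of the steps had been seen, RLBP1 met a ratio of 191 to 37 reads and missed it by 2.61e-05%. Ratios of this kind cover 4.76% of the scale around RLBP1, and over all features with a geometric mean of 2 to 5 FPKM, 54.1% met one where 18.4% of the scale is covered. The pair is the smallest that gives the ratio and not a count of reads. RXRA met a ratio of 176 to 177, where 23.2% of the scale is covered. STRA6, RDH10, RARA and RARG met no ratio of this kind. Several low genes of the pathway lay on steps of few reads. CYP26A1, RDH8, CDX1 and ALDH1A3 had the ratio of equal reads, 1 to 1 or any multiple of it. How many reads lie behind them is not known, and a lower or higher level in either culture cannot be read from them. ADH4 lay at 2 reads to 3, MEIS1 at 4 to 3 and CYP26B1 at 9 to 11, or multiples of these. The same holds for VDR at 8 to 11 and for FOXA1 at 17 to 19.

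**Figure D4:**
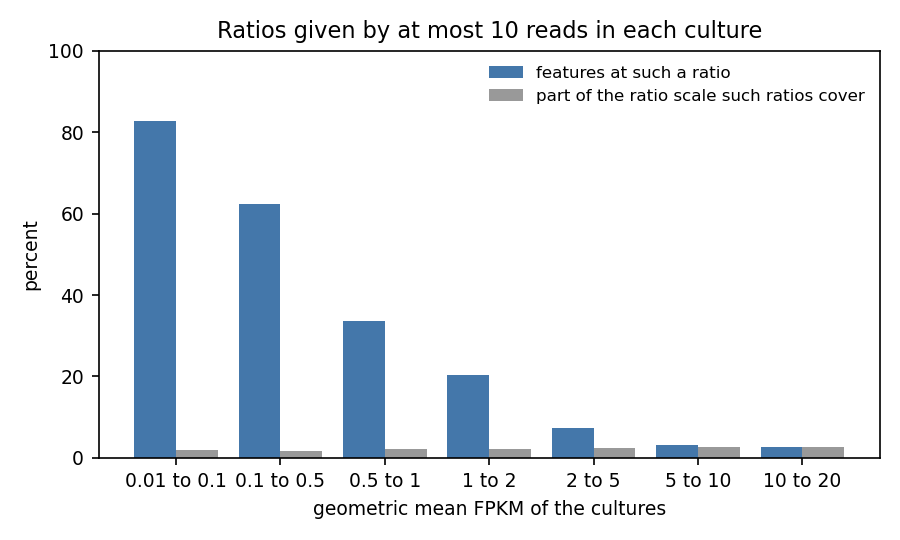
Percent of features (blue bars) whose 50-cm over 2-cm ratio lies within 0.05% of what 10 or fewer reads per culture would leave, by geometric mean FPKM of the cultures, beside the percent of the ratio scale that such ratios cover (grey bars). The blue bar falls from 82.8% at 0.01 to 0.1 FPKM to 3.17% at 5 to 10 FPKM, close to the grey bar; RLBP1 and DHRS3 belong to the bin of 2 to 5 FPKM.

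The features whose pair of log2 FPKM values was nearest to that of RLBP1 were CXCR7, with 7.43 and 1.28 FPKM at a distance of 0.32, and LOC102152163, with 5.29 and 1.66 FPKM at a distance of 0.51. For DHRS3 they were the same LOC102152163, at 0.23, and TSPAN1, with 4.60 and 1.62 FPKM at 0.25. Likeness here rests on 2 values per feature. The cultures carried the RNA of an epithelium, as 8 of 8 epithelial markers were above 1 FPKM in both, among them CDH1 with 211 and 229 FPKM and KRT8 with 1641 and 1561 FPKM. The kidney factors PAX8, with 65.1 and 57.6 FPKM, and PAX2, with 28.3 and 27.9 FPKM, were present. LHX1 had 0.819 and 1.05 FPKM, and EMX2 was listed at 0. CDH16 was low at 1.96 and 0.676 FPKM (ratio 0.345) and was not above 1 FPKM in both cultures. Its log2 ratio of -1.54 lay below the 5th percentile of -1.27 for features of like expression above 0.1 FPKM in both cultures. The 6 fibroblast markers summed to 0.356 and 0.401 FPKM, with COL3A1, DCN and LUM at 0, and the 5 endothelial and immune markers to 0.458 and 0.268 FPKM, with PECAM1, PTPRC and CD3E at 0. In such bulk RNA, fewer cells that express RLBP1 or DHRS3 and less RNA per cell cannot be told apart. Each medium height was 1 library, so height and library cannot be told apart either.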

How the data were processed

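RNA of 1 MDCK culture per medium height was analysed. Per the paper's methods and the labels, the libraries were stranded mRNA libraries read from one end over 75 bases. The authors used TopHat 2.0.13 (over Bowtie 2 2.2.3, with SAMtools 0.1.19) and the build CanFam3.1, and deposited FPKM values from Cuffnorm 2.2.1. The annotation, the scaling and whether counting used strand are not given in the sources used here. Cuffnorm shares reads between isoforms and related genes, so values of paralogs are uncertain.

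The deposited values were divided, 50-cm by 2-cm, with no pseudocount. Changes past 2-fold were counted where both cultures exceeded 1 FPKM. The worth of 1 read was taken from the commonest ratio among features below 0.1 FPKM. The scripts were tested on simulated data. Depth is unknown, so no interval is given for single values. Named genes were the 9 members, pathway genes past 2-fold, the most abundant gene of each list, paralogs of members, and the 2 features nearest in pattern to RLBP1 and DHRS3; a few further genes were named after their values were seen. Members and lists were chosen with earlier results of these data known. Alternatives were other FPKM minima, pseudocounts of 0.1 and 1, recentring on the median, quantile normalization and other step settings. Listed genes without a row (7 of the pathway, and 2 markers) were not analysed here, nor were sequences or positions in CanFam3.1. Values of some listed genes are not reported here. RefSeq symbols matched 9 of 9 members. The tools were pandas 2.3.3, numpy 2.4.6 and matplotlib 3.10.9 under Python 3.11.15.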

Additional observations from a re-analysis of the deposited data

How the results depend on the processing

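With 1 culture per medium height, no alternative could leave out a replicate, and a result was taken to hold where a count stayed within 1.5 times its value or a log2 ratio moved by less than 0.25, the scaled median absolute deviation across all features tested. No paired analysis was possible because each group has 1 sample. A minimum of 5 FPKM in both cultures removed RLBP1, DHRS3 and RARG, which left 3 of the 9 genes with 0 past 2-fold and 4 retinoic acid target genes with 0 past 2-fold. The few-read count went from 1 gene (DHRS3) to 3 when up to 200 reads within 0.001% were allowed. A pseudocount of 1 moved the log2 ratio of RLBP1 to -1.71 and that of DHRS3 to -1.35. The median log2 ratio of the genes of the 9 that passed the minimum stayed within 0.25 of its value, but came to 0.013 with the minimum of 5 FPKM and to -0.0080 with a minimum of 0.1 FPKM, which admits STRA6. No other result moved, and 0 further pathway genes passed 2-fold under any alternative that set a different minimum, pseudocount or scaling. The signs of RDH10 and RARA turned under quantile normalization, to -0.054 and 0.044 on the log2 scale, and that of RDH10 also with recentring, to -0.0020.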
